A study of Homo sapiens with 12 samples.

Results

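Stem cells are held in an undifferentiated state by a small network of genes, and neurons made from stem cells shut most of that network off. The transcripts described here are those of 10 genes, *POU5F1*, *POU5F1B*, *NANOG*, *SOX2*, *LIN28A*, *LIN28B*, *DPPA4*, *L1TD1*, *DNMT3B* and *SALL4*, in human neurons from a study of spinal muscular atrophy. The genes were chosen by name, at a time when their levels and the authors' comparison of the groups in these tables were already known, so their levels are a description. They were taken from 2 tables, 1 for each kind of neuron. In the table of motor neurons (iMNs), 6 of the 10 names were found among 16406 rows. In the table of glutamatergic neurons (i3Ns), all 10 were found among 19016 rows. *POU5F1* had 4 gene identifiers there, so that the 10 names took 13 rows. The 4 names not listed in the iMN table were *POU5F1*, *NANOG*, *DPPA4* and *L1TD1*. Of all rows of the i3N table, 15.4% were not listed for iMNs.

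The iMNs were differentiated with small molecules from 1 human iPSC line carrying Td-Tomato under the HB9 promoter and were isolated by FACS on that reporter. The i3Ns were made from H1, an established human ES cell line engineered to express the neurogenic transcription factor NGN2 on induction. GEO's labels name the 2 kinds of cells motor neuron and cortical neuron. Both were transduced with a lentivirus carrying an inducible shRNA, either a scrambled one (SCR) or one against *SMN1* and *SMN2* (*SMN*-KD), and RNA was harvested after the shRNA had been induced. Each of the 4 groups had 3 libraries, 12 in all. Because the iMNs and the i3Ns differ in starting line and in protocol as well as in kind, these 3 sources of a difference cannot be told apart.

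*POU5F1* (OCT4), *SOX2* and *NANOG* encode the transcription factors at the core of the pluripotency network, with *SALL4* as a zinc finger partner. *LIN28A* and *LIN28B* encode RNA-binding proteins that block the maturation of let-7 microRNAs, and they are lost in most tissues as cells mature. *DNMT3B* is a de novo DNA methyltransferase, *DPPA4* a nuclear protein of early embryonic and stem cells, and *L1TD1* an RNA-binding protein derived from a LINE-1 element. *POU5F1B* is a retrotransposed copy of *POU5F1* on another chromosome. *SOX2* differs from the others in that neural progenitors also express it.

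The value given for each gene is the mean normalized count, which is the authors' mean over the 6 libraries of a cell type of estimated read counts divided by DESeq2 size factors. This mean pools SCR and *SMN*-KD libraries, so it carries no spread between replicates and no difference between the groups, and it cannot check the knockdown itself. All statements below are therefore descriptions of levels, without a test. In the iMN table the median gene had a mean normalized count of 875 and the lowest 7.73, and in the i3N table these values were 577 and 1.37. The depth of single libraries is unknown here. A percentile below is the percentage of rows of the same table with a lower mean normalized count. The highest and lowest gene of a list, and the ends of a range, are by mean normalized count, which is not scaled by transcript length.

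*LIN28B* was the most abundant of the 10 transcripts in both cell types. Its mean normalized count was 1176 in iMNs and 9184 in i3Ns, at percentile 56.6 of the iMN table and percentile 94.9 of the i3N table. *LIN28A* had a mean normalized count of 215 in iMNs, at percentile 29.3, and of 4216 in i3Ns, at percentile 85.5. Both genes thus stood above the median gene of the i3N table, whereas in iMNs *LIN28B* alone among the 6 listed genes did. The tables were normalized separately, so levels were set side by side as shares of each table's sum. On that scale *LIN28A* was 18.9-fold higher in i3Ns (log2 ratio 4.24) and *LIN28B* 7.51-fold higher (log2 ratio 2.91). Among the 16093 genes listed in both tables, 0.44% had a higher ratio than *LIN28A* and 1.45% a higher ratio than *LIN28B*. The median gene had a log2 ratio of 0.01, with quartiles of -0.53 and 0.45. Per kilobase of transcript, *LIN28B* was 3.997 times *LIN28A* in iMNs and 1.59 times in i3Ns. *LIN28A* lies on chromosome 1 (26410817 to 26429728, plus strand) and *LIN28B* on chromosome 6 (104936616 to 105083332, plus strand) of GRCh38.

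**Figure D1:**
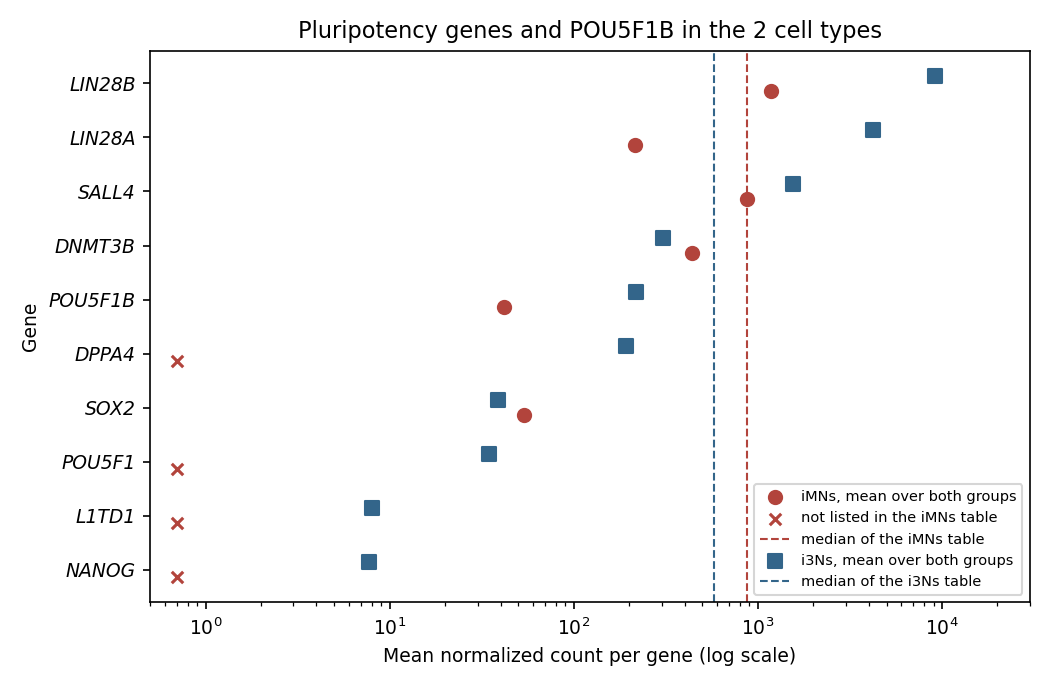
Mean normalized count (log scale) of each of the 10 genes in iMNs (circles) and i3Ns (squares), as the authors' mean over the 6 libraries of both groups, with the median of each table as a dashed line and a cross for a gene not listed. *LIN28B* and *LIN28A* reach 9184 and 4216 in i3Ns, whereas *NANOG* and *L1TD1* lie near 8 there and are not listed for iMNs.

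*POU5F1* was scarce in i3Ns and not listed for iMNs. Its 4 identifiers in the i3N table had mean normalized counts of 13.9 (ENSG00000204531), 11.4 (ENSG00000206454), 6.47 (ENSG00000230336) and 2.72 (ENSG00000229094), which sum to 34.4, at percentile 24.9. The first is the *POU5F1* gene on the minus strand of chromosome 6 (31164337 to 31180731, GRCh38), within the major histocompatibility complex, and the other 3 are outside the main annotation of GENCODE 44. That region is represented more than once in the assembly. Of 16 alternate sequences of chromosome 6, 6 hold between 90.5% and 97.5% of the 31-base k-mers of the *POU5F1* exons, and none holds all of them. Salmon, the program that assigned the reads, works with matches to transcripts, so the split of reads among these identifiers is uncertain, and the sum is used for *POU5F1* here.

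*POU5F1B* was listed for both cell types, and in i3Ns, where its parent gene was listed too, its level was above that of the parent. Its mean normalized count was 41.7 in iMNs, at percentile 14.8, and 218 in i3Ns, at percentile 38.8. As a share of each table's sum it was 5.04-fold higher in i3Ns (log2 ratio 2.33), and 2.39% of the genes in both tables had a higher ratio. In i3Ns the level of *POU5F1B* per kilobase of its MANE Select transcript (1 reference transcript per gene) was 8.28-fold that of the summed *POU5F1* identifiers. Over the union of all annotated exons the ratio was 3.67, because *POU5F1B* has a 1080-base MANE Select transcript of 1 exon but 4964 bases of annotated exons. The iMN table thus lists the copy and not the parent. Listing is per identifier, and of the i3N rows with a level within 1.25-fold of each *POU5F1* identifier, 69.2% were listed for iMNs at the level of the highest identifier and 13.2% at that of the lowest.

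The 2 genes share much of their sequence, which makes the assignment of reads to them less certain than for members with little shared sequence. Of the 31-base k-mers in the MANE Select transcript of *POU5F1*, 77.9% also occur in transcripts of other genes, and 50.7% occur in those of *POU5F1B*. Of the k-mers of *POU5F1B*, 50.95% occur in transcripts of other genes, and 49.6% of all its k-mers occur in those of *POU5F1*. With k-mers of 51 bases these shares were 63.1% for *POU5F1* and 34.7% for *POU5F1B*. The remaining k-mers of *POU5F1B* occur in no annotated transcript of another gene. *POU5F1P5* and *POU5F1P6*, copies that the i3N table also lists, had mean normalized counts of 3.99 and 4.79.

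**Figure D2:**
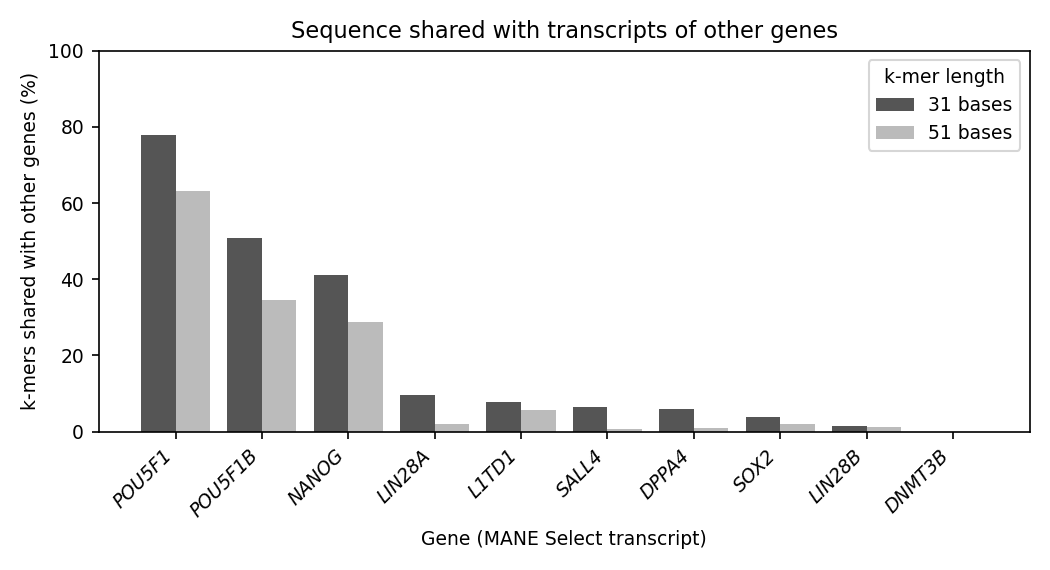
Percentage of the k-mers of each gene's MANE Select transcript that also occur, on either strand, in a GENCODE 44 transcript of another gene, for k-mers of 31 and 51 bases. *POU5F1* (77.9%), *POU5F1B* (50.95%) and *NANOG* (41.2%) stand above 10% at 31 bases, and *DNMT3B* shares none.

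*NANOG* was close to the lower end of the i3N table, with a mean normalized count of 7.73 at percentile 13.6, and was not listed for iMNs. It too has a copy that shares sequence with it, *NANOGP8*, which had a mean normalized count of 1.83 in i3Ns. The i3N table also lists the copies *NANOGP4* (20.5) and *NANOGP5* (19.4), both above *NANOG* itself, and the iMN table lists none of these copies. *NANOGP8* accounts for the largest single share of the *NANOG* k-mers found elsewhere (29.6% of all its 31-base k-mers). An isolated base difference is shown in 29 bases of the coding sequence of *NANOG* (chr12:7789647-7789675, plus strand, exon 1). The counterpart in *NANOGP8* lies at chr15:35085050-35085078 (minus strand, exon 1). The search required 14 identical bases on each side, so the stretch does not measure how alike the genes are. Both sequences are in GRCh38 and in the direction of the transcript, with the base that differs in capitals.
NANOG: gccttgctttgaagCatccgactgtaaag
NANOGP8: gccttgctttgaagAatccgactgtaaag
In the coding sequence of *NANOG*, 4 such isolated differences with 14 identical bases on each side were found, and a read that spans none of the differences between the genes fits both. The level of *NANOG* in i3Ns, 7.73 normalized counts per library on average, is thus an estimate and not a number of reads unique to *NANOG*.

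*SOX2* was among the scarcer members in both cell types, with a mean normalized count of 53.9 in iMNs, at percentile 16.8, and of 38.9 in i3Ns, at percentile 25.6. As a share of each table's sum it was 1.44-fold higher in iMNs (log2 ratio of i3Ns over iMNs -0.53). Of the genes in both tables, 25.1% had a lower ratio, so *SOX2* lay near the lower quartile. *SOX2* is a single-exon gene on chromosome 3 (181711925 to 181714436, plus strand). Its relatives *SOX1* and *SOX3*, which act with it in neural progenitors, had mean normalized counts of 40.01 and 48.0 in iMNs and of 45.3 and 9.97 in i3Ns. A list of 12 SOXB factors and neural progenitor genes had median percentiles of 29.8 in iMNs and 26.5 in i3Ns. Of that list, 3 genes were above the median gene in iMNs and 4 in i3Ns. Among these were the genes that encode the intermediate filaments nestin (*NES*) and vimentin (*VIM*), which were abundant. *NES* reached a mean normalized count of 6043 in iMNs and 29662 in i3Ns, and *VIM* 3376 and 36571.

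*DPPA4* and *L1TD1* were listed for i3Ns only. *DPPA4*, on the minus strand of chromosome 3 (109326144 to 109337546), had a mean normalized count of 193 there, at percentile 37.8. Of the 745 rows of the i3N table with a level within 1.25-fold of it, 2.82% were not listed for iMNs, and those that were listed had a median of 184 in iMNs. The absence of *DPPA4* from the iMN table was therefore uncommon for a gene of its level in i3Ns. *L1TD1*, on chromosome 1 (62194849 to 62212328, plus strand), had a mean normalized count of 8.01 in i3Ns, at percentile 13.9. For genes near the levels of *L1TD1* and *NANOG*, 54.8% and 55.5% were not listed for iMNs, so their absence was common. A gene that is not listed has no value here, and the lowest mean in the iMN table was 7.73, so absence does not mean a level of 0.

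*SALL4* and *DNMT3B* were listed for both cell types at intermediate levels. *SALL4*, on the minus strand of chromosome 20 (51782331 to 51802521), had a mean normalized count of 872 in iMNs, at percentile 49.9, and of 1548 in i3Ns, at percentile 67.3, which was 1.71-fold higher as a share of the table's sum (log2 ratio 0.77). *DNMT3B*, on the plus strand of the same chromosome (32762385 to 32809359), had a mean normalized count of 438 in iMNs, at percentile 37.9, and of 306 in i3Ns, at percentile 42.2. As a share of the table's sum it was 1.49-fold higher in iMNs (log2 ratio of i3Ns over iMNs -0.58), although its percentile was higher in i3Ns. The i3N table holds 2591 rows below the lowest mean of the iMN table, and these raise the percentile of every gene above them.

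**Figure D3:**
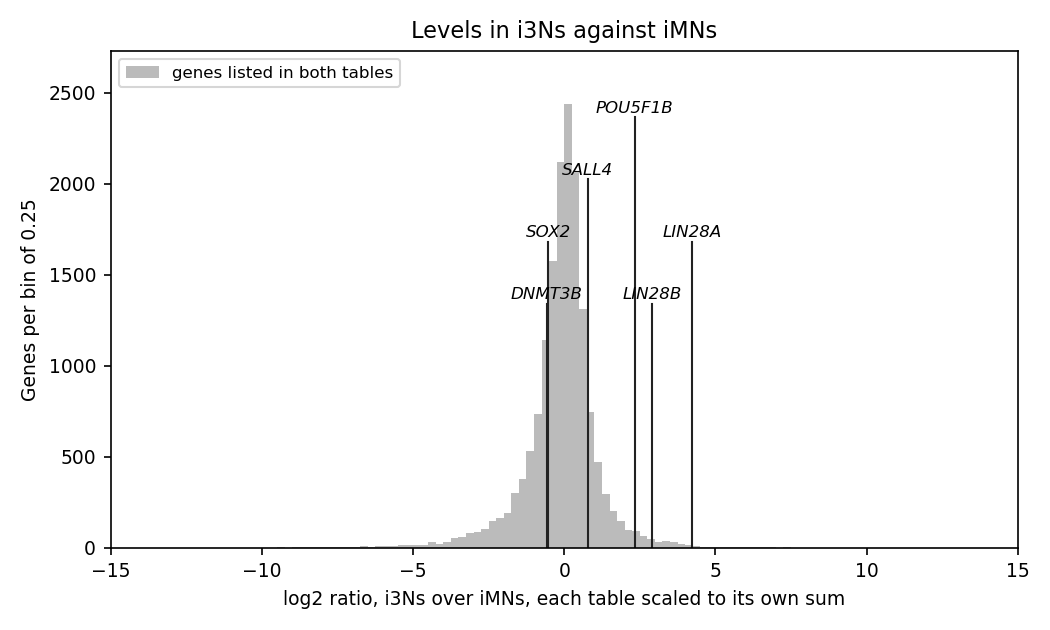
Histogram of the log2 ratio of i3Ns over iMNs for the 16093 genes listed in both tables, each table scaled to its own sum, in bins of 0.25, with the 6 members listed in both as vertical lines whose heights carry no value. *LIN28A* (4.24), *LIN28B* (2.91) and *POU5F1B* (2.33) lie in the right tail, and *DNMT3B* (-0.58) and *SOX2* (-0.53) lie near the lower quartile (-0.53).

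Of the 6 members listed in both tables, 4 had a higher share of the table's sum in i3Ns and 2 in iMNs, against 50.9% of all genes in both tables that were higher in i3Ns. The order of the members was also compared within each table, per kilobase of the MANE Select transcript. In iMNs the order from the highest was *LIN28B* (216 normalized counts per kilobase), *SALL4* (167), *DNMT3B* (101), *LIN28A* (54.0), *POU5F1B* (38.6) and *SOX2* (21.5). All 6 lay below the median of the table, which was 284. In i3Ns it was *LIN28B* (1686), *LIN28A* (1061), *SALL4* (297), *POU5F1B* (202), *DNMT3B* (70.5), *DPPA4* (69.1), *POU5F1* (24.4), *SOX2* (15.5), *L1TD1* (2.09) and *NANOG* (1.49), and the first 3 lay above the median of 208. *DNMT3B* and *DPPA4* differed by 1.02-fold, and since no spread between libraries is available, no pair of neighbours in either order can be said to differ beyond it. The place of *POU5F1B* depended on the length used. Per kilobase of the union of exons it had 8.39 normalized counts in iMNs, below *SOX2* (21.5), and 43.97 in i3Ns, below *DNMT3B* (44.4).

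Other pluripotency genes had lower median percentiles than the members, whose medians were 33.6 in iMNs and 38.3 in i3Ns. Of a list of 20, 7 were listed for iMNs with a median percentile of 8.9, and 11 for i3Ns with a median percentile of 23.7. None of them was above the median gene of either table. By mean normalized count the highest of them in iMNs was *TFCP2L1* (58.6), although per kilobase it lay below *LEFTY1* (6.31 against 12.7). In i3Ns they ranged from *UTF1* (2.34) to *PRDM14* (508), a transcriptional regulator of pluripotency and germ cells that was not listed for iMNs. *ZFP42* (REX1), a marker of undifferentiated stem cells, had a mean normalized count of 9.83 in i3Ns. In neither table were *DPPA3*, *DPPA5*, *TDGF1*, *LEFTY2*, *NODAL*, *KLF17*, *ESRG* and *VRTN* listed. Of 7 genes of the early germ layers, 2 were listed for iMNs, with *EOMES* the highest at 25.7, and 6 for i3Ns, with *CER1* the highest at 18.9, while *FOXA2* was listed for neither.

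Genes of let-7 processing and let-7 targets were mostly above the median gene in both cell types. All 12 genes of a list of let-7 processing factors and targets were listed for both cell types, and 11 of them were above the median gene of each table. *DICER1*, the nuclease that releases mature microRNAs, had the highest mean normalized counts, 14916 in iMNs and 20810 in i3Ns. *HMGA2*, a chromatin protein whose transcript is a let-7 target, was the lowest, with 420 and 448. *TRIM71*, a let-7 target that encodes an RNA-binding ubiquitin ligase, was 9.19-fold higher in i3Ns by share of the table's sum (1675 in iMNs, 15998 in i3Ns). Per kilobase, *TRIM71* was 0.891 times *LIN28B* in iMNs and 1.09 times in i3Ns. *IGF2BP1* and *IGF2BP3*, let-7 targets as well, were 1.59-fold and 1.39-fold higher in i3Ns, and *HMGA2* 1.03-fold. Of the 12 genes, 10 had a higher share in i3Ns, against 50.9% of all genes in both tables. The other 2, *DIS3L2* and *TUT4*, had a higher share in iMNs. The median log2 ratio of the list was 0.38, within the quartiles of all genes in both tables (-0.53 and 0.45). *TRIM71* and then *ARID3B* (2.85-fold) had the largest ratios of the list.

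*DNMT3A*, *DNMT1* and *SALL2*, relatives of *DNMT3B* and *SALL4*, exceeded them in both cell types. *DNMT3A*, the other de novo DNA methyltransferase, was 4.02-fold higher than *DNMT3B* per kilobase in iMNs and 13.3-fold higher in i3Ns. *DNMT1*, which maintains methylation after replication, had mean normalized counts of 4741 in iMNs and 4978 in i3Ns. Of 7 genes of DNA methylation and demethylation, *DNMT3L* was listed for neither cell type. Of the other 6, *TET3* had the highest mean normalized count (8695 in iMNs and 15138 in i3Ns) and *UHRF1* the lowest (107 and 331). Per kilobase, *DNMT1* was above *TET3* in iMNs (899 against 721) and below it in i3Ns (944 against 1255). *SALL2* was 4.42-fold higher than *SALL4* per kilobase in iMNs and 2.32-fold higher in i3Ns. *SALL3* had mean normalized counts of 4240 in iMNs and 391 in i3Ns, summed over 2 identifiers.

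**Figure D4:**
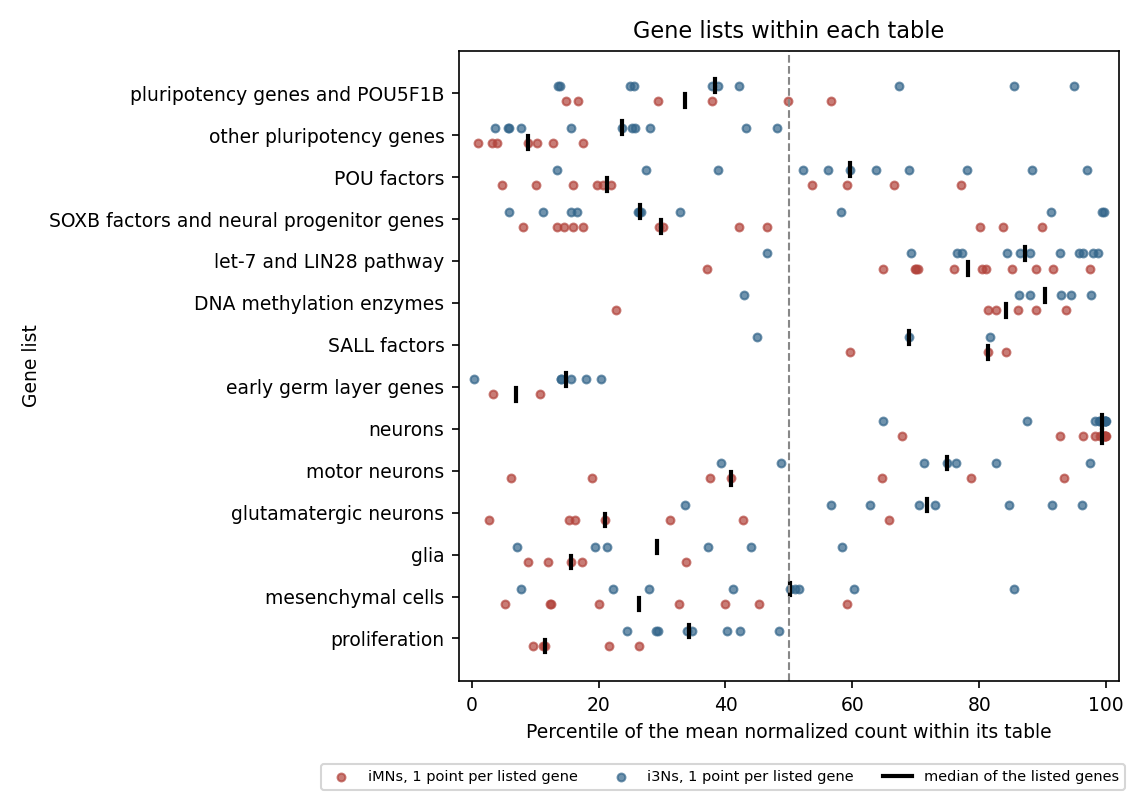
Percentile of each listed gene's mean normalized count within its own table, for each gene list and cell type (1 point per gene), with the median of each list as a black bar and the median gene of the table as a dashed line. Neuronal genes have a median percentile of 99.4 in both cell types, whereas the other pluripotency genes have medians of 8.9 and 23.7.

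Markers of the cells that the cultures could hold were examined beside these levels. All 10 general neuronal genes were listed for both cell types, at a median percentile of 99.4 in each, from *RBFOX3* (1886 in iMNs, 1351 in i3Ns) to *DCX* in iMNs (183167) and *NEFL* in i3Ns (349907). Per kilobase, *MAP2* was 54.1-fold higher than *LIN28B* in iMNs and 5.09-fold higher in i3Ns. All 7 motor neuron genes were listed for both cell types and did not separate them in 1 direction. *SLC5A7*, *SLC18A3* and *CHAT*, which serve cholinergic transmission, were 3.56-fold, 1.74-fold and 1.05-fold higher in iMNs. By contrast, *MNX1* (HB9), *ISL1*, *ISL2* and *LHX3* were 5.10-fold, 8.27-fold, 48.5-fold and 14.7-fold higher in i3Ns. Of 8 genes of glutamatergic neurons, 7 were listed for iMNs and all for i3Ns, where *SLC17A6* was the highest (593 in iMNs, 11237 in i3Ns). Proliferation genes, which dividing stem cells or progenitors would express, were listed in 5 of 8 cases for iMNs, from *TOP2A* (22.5) to *CCNB1* (162). In i3Ns all 8 were listed, from *AURKB* (31.9) to *MKI67* (522). Their median percentiles were 11.5 and 34.3, and all 5 listed in both tables had a higher share in i3Ns, against 50.9% of all genes in both tables. The same held for 7 of 8 mesenchymal genes and 6 of 7 glutamatergic genes listed in both. Among 9 mesenchymal genes, the 8 listed for iMNs had a median percentile of 26.3 and the 9 listed for i3Ns one of 50.1, with *COL1A1* the highest in both (1321 and 4228). Among 9 glial genes, 5 were listed for iMNs and 6 for i3Ns, with median percentiles of 15.7 and 29.2, and *GFAP* and *AQP4* were listed for neither. Their part in the levels of the members was not tested. In bulk RNA a few cells with much of a transcript and many cells with little of it cannot be told apart.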

How the data were processed

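Total RNA from 12 libraries was depleted of ribosomal RNA and sequenced in paired-end reads, per the labels. After adapter removal by fastp, the authors estimated transcript counts with Salmon and passed them to DESeq2, once per cell type. Versions, the transcript annotation and the low-count filter are not given in the sources used here. Each deposited table holds a signal value per gene, the mean normalized count over both groups. It also holds 4 columns of the authors' own comparison (log2 fold change, its standard error, p-value and adjusted p-value), which were not used. Without counts per library, no group was compared, no test was run, and the depth per library is unknown.

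The members and lists were chosen with earlier results of these data known. Identifiers of 1 gene name were summed. Percentiles used all rows of a table, and levels across tables used shares of each table's sum. The genes named were all members, the highest and lowest gene of each list, genes listed in neither table, and the gene sharing most k-mers with a member, except 1 that is not reported here. Other genes, the pairs compared per kilobase, the 1.25-fold window around a level, the 10% limit for shared k-mers, the search of alternate sequences and the *NANOG* stretch were chosen after values were seen. Lengths and coordinates come from GENCODE 44 on GRCh38 (hg38, the build in the submitters' processing notes), which had a gene model for 95.8% of the rows for iMNs and 95.4% for i3Ns. The k-mers of 31 bases of each MANE Select transcript were searched on both strands of all annotated transcripts. The percentile and k-mer steps were tested on simulated data. Alternatives changed the identifiers, the background of the percentile, the length, the scaling and the k-mer length. The analysis used numpy 2.4.6 and pandas 2.3.3.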

Additional observations from a re-analysis of the deposited data

How the results depend on the processing

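The counts of members and lists above or below the median of their table kept within 1.5 times their value under the alternatives that were run, with 1 exception. Per kilobase of the union of exons instead of the MANE Select transcript, 1 member lay above the median of the iMN table, against 0. Of 48 percentiles of single members recomputed, 15 were unchanged to 1 decimal. These 15 kept only the primary identifier of members with 1 identifier, so they could not change. Every percentile recomputed against another background moved. The largest move was that of *POU5F1* in i3Ns, from 24.9 to 10.9 when rows with a mean normalized count under 10 were left out of the background. Scaling the tables by the median ratio of shared genes moved the 6 log2 ratios by 0.01 and reversed none. No paired analysis was possible because the tables hold 1 mean over all libraries of a cell type. For the same reason no replicate could be left out, and tests on counts, listed among the alternatives, were not run. Levels near the lower end of a table, such as those of *NANOG*, *L1TD1* and *POU5F1*, are the least certain.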

Other observations

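Among relatives of the members, *POU4F1*, *POU4F3*, *SOX14* and *SOX21* had larger ratios between the tables, in either direction, than any member listed in both. These genes were picked after their values were seen, and all ratios are shares of each table's sum, with no test and with the cell type, the line and the protocol not told apart. *POU4F1* (BRN3A), a POU factor of sensory neurons, had a mean normalized count of 24.2 in iMNs and 13128 in i3Ns, a ratio of 521, and 0.01% of the genes in both tables had a higher one. *POU4F3* followed with 12.6 and 835, and *POU4F2* was listed for i3Ns only, at 668. *POU3F2* (BRN2), a POU factor of neural progenitors and neurons, was 1.43-fold higher in i3Ns, with 1792 and 2672, and *POU3F4* was 12.0-fold higher in iMNs, with 86.4 and 7.47. Of 13 POU factors, 10 were listed for both cell types, and 8 of these were higher in i3Ns, against 50.9% of all genes in both tables.

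In the other direction, *SOX14*, a SOXB factor of interneurons and other neural cells, had a mean normalized count of 736 in iMNs and 5.76 in i3Ns, 133-fold higher in iMNs. *SOX21* was 19.6-fold higher in iMNs (59.0 and 3.13), *FABP7*, a fatty acid-binding protein of radial glia, 19.9-fold (218 and 11.4), and *SALL3* 11.3-fold. *PAX6*, a transcription factor of neural progenitors, was 2.39-fold higher in iMNs (234 and 101.8). *ESRRB*, a nuclear receptor of the pluripotency network, was 10.1-fold higher in i3Ns (32.2 and 337).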
